A study of Mus musculus with 7 samples.

Results

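The respiratory chain and ATP synthase genes of the lung were compared between mice with a deleted Gata5 gene, whose product is a GATA-type transcription factor, and wild-type mice. Genes were chosen by name: those whose platform symbol begins with Nduf, Uqcr, Cox4 to Cox8 or Atp5, and Sdha to Sdhd. They came to 90 of 18193 genes on the array, read by 179 of 45101 probe sets, and 87 of the 90 were bright enough to be tested. Ndufb1, Ndufb4 and Cox7b2 were not. The samples were left lungs from 3 Gata5 knockout mice (KO) and 4 wild-type mice (WT), all 8 weeks old and with no treatment listed, with 1 Affymetrix Mouse Genome 430 2.0 array per mouse. The labels call the arrays of each genotype biological replicates. The sources used here give neither the exons removed nor the strain or sex of the mice, so the knockout is known only from its genotype label.

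The respiratory chain sits in the inner mitochondrial membrane. Complex I oxidises NADH and complex II oxidises succinate, both pass electrons through coenzyme Q to complex III, and cytochrome c carries them to complex IV, which reduces oxygen. Complexes I, III and IV pump protons, and complex V, the ATP synthase, uses the returning protons to make ATP. Apart from a few subunits encoded by mitochondrial DNA, the subunits come from nuclear genes, and some of complexes IV and V exist as isoforms that differ between tissues. The binding motifs of NRF1 and of GABPA, a pair of transcription factors known for driving nuclear genes of the chain, are given with the promoters.

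Levels are the deposited log2 values, so a difference of 1 is a doubling. The median level per array lay between 6.10 and 6.15. Lung markers were bright, with Sftpc, the surfactant protein of alveolar type II cells, at a mean of 14.03 on KO and 14.15 on WT arrays. Arrays differed in 2 other ways. WT replicate 4 carried Xist, which silences an X chromosome in females, at 12.72 against 6.31 to 6.48 on the other arrays. The control probe sets also differed by genotype. On the KO arrays the 3′ minus 5′ difference of beta-actin was 4.74, 5.39 and 4.76, and on the WT arrays it was 4.31, 3.88, 4.27 and 3.94. The 3′ minus middle difference was larger on KO arrays by 0.61 for beta-actin and by 0.55 for Gapdh. None of these 3 differences overlapped between the genotypes (exact two-sided permutation p = 0.0286 for each, the smallest that 35 splits can give). Without any 1 array the p lay between 0.0667 and 0.1, the smallest those splits allow. Such differences are read as signs of RNA or labelling quality.

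Respiratory chain genes moved about as often as other genes. By limma's moderated test with Benjamini-Hochberg adjustment over all 13285 genes tested, 14 of the 87 passed at adjusted p under 0.05 (16.1%), against 15.6% of all genes. Of these, 11 were lower in KO (12.6%, against 10.0% of all genes) and 3 were higher (3.45%, against 5.56%). The groups did not overlap for 29 genes (33.3%, against 29.6% of all genes). The median log2 change was -0.04 over the 90 genes and 0.04 over all genes, or -0.04 over the 87 tested and -0.003 over all genes tested. A negative change was found for 51 of the 90 genes and for 7535 of all 18193. The largest fall was 1.64-fold.

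**Figure D1:**
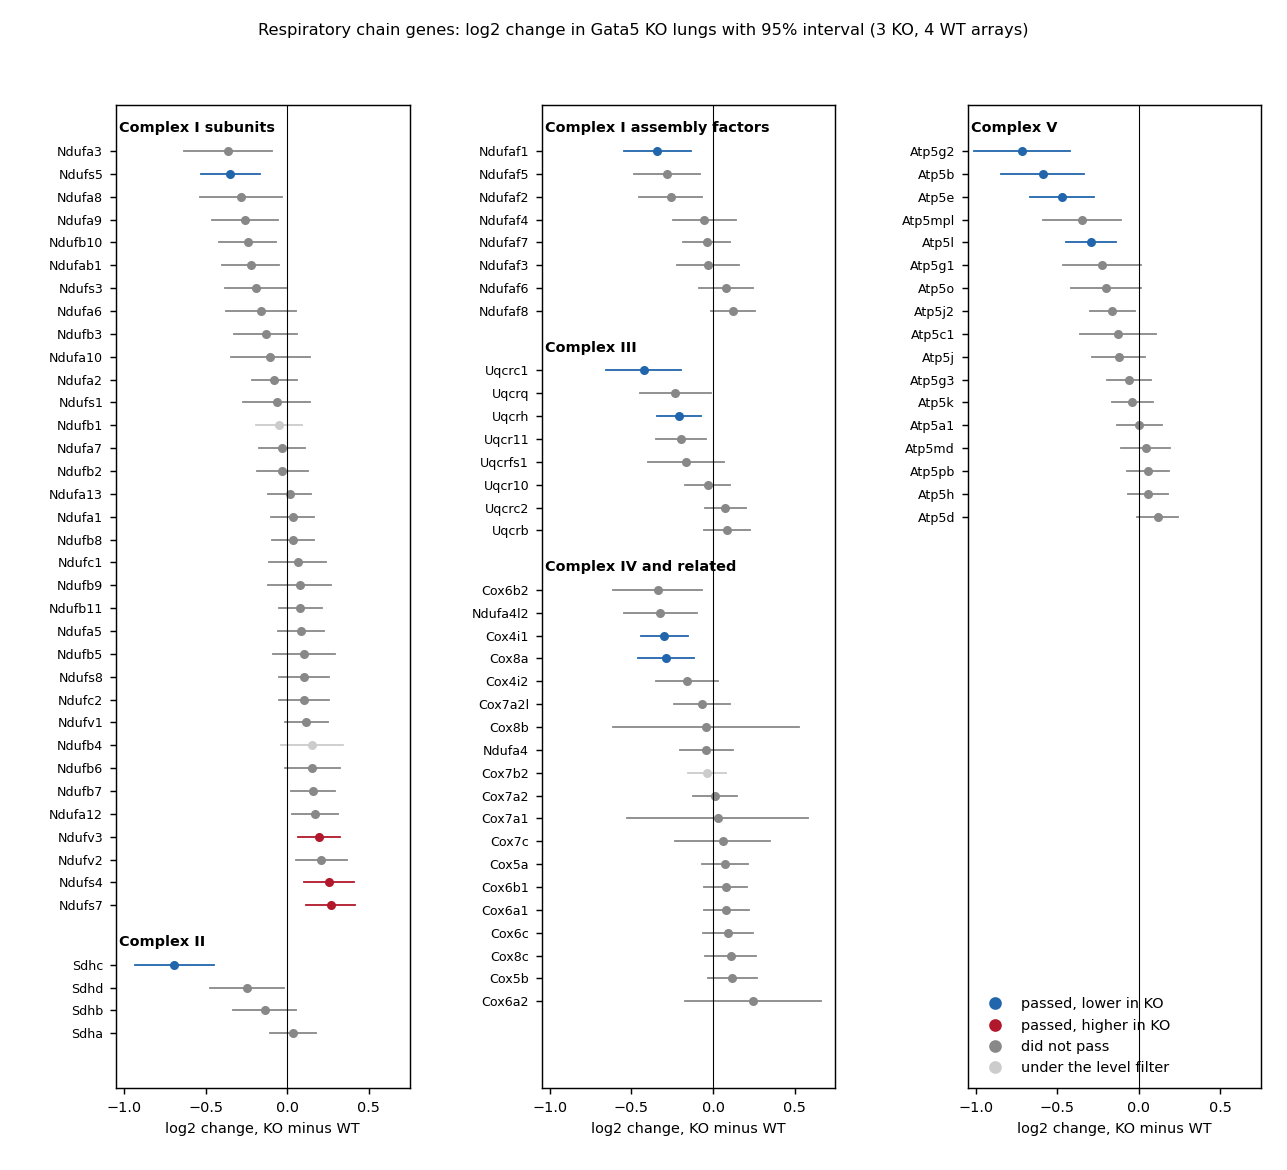
Log2 change of each of the 90 respiratory chain genes (KO minus WT, horizontal axis) with its 95% interval, ordered within each complex, from 3 KO and 4 WT arrays. Most intervals span 0, and the changes run from -0.72 at Atp5g2 to 0.27 at Ndufs7.

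Median changes of the complexes lay on both sides of 0. Complex II had 1 of 4 subunits lower and a median change of -0.19, complex III 2 of 8 and -0.18, and complex V 4 of 17 and -0.13, with none higher in any of them. In complex IV 2 of 16 tested subunits fell, none rose and the median over its 17 genes was 0.03, which turned to -0.001 when arrays were centred on their medians. Complex I stood at a median of 0.04 over 34 subunits, with 1 lower and 3 higher of 32 tested. That median turned to -0.18 when each gene that had a bright enough probe set designed for 1 transcript was read by it. The complex I median turned to -0.065 when a gene's probe sets were averaged. It turned to -0.076 and -0.058 with the actin 3′ minus 5′ and Gapdh differences as covariates. The complex IV median was negative in each of these 4 fits too. With the actin 3′ minus middle difference as covariate the complex II median turned to 0.049 and the complex III median was -0.038. The 6 core subunits of complex I, which carry the electrons, had a median of 0.11 with 1 higher. The 28 accessory subunits of complex I had a median of 0.02 with 1 lower and 2 higher. The 8 assembly factors of complex I were counted apart, with 1 lower and a median of -0.05, as were Cox7a2l and Ndufa4l2, proteins related to complex IV subunits, neither of which passed. These differences between complexes were not tested.

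The counts moved with the processing and with single arrays. A further quantile normalization gave 7 members lower and 8 higher, cyclic loess 10 and 7, and median centring 14 and 2, while the share of higher among all changed genes went from 35.7% to 56.9%, 46.7% and 25.5%. Leaving out KO replicate 2 gave 17 lower, leaving out KO replicate 1 gave 7 and WT replicate 2 gave 6, and leaving out KO replicate 3 or WT replicate 1, 3 or 4 gave 5. The same fits called 1325 of all 13285 genes lower without KO replicate 2, 981 without KO replicate 1 and 984 without WT replicate 2, and 686, 695, 750 and 604 without KO replicate 3 and WT replicates 1, 3 and 4. With any of the 3 control differences as a covariate in limma no member passed. Of the 87, 12 (actin 3′ minus 5′), 24 (Gapdh) and 4 (actin 3′ minus middle) had an unadjusted p under 0.05. Over all 13285 genes these fits called 0, 5 and 0, and 2204, 2726 and 1742 had an unadjusted p under 0.05.

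Complex II, succinate dehydrogenase, joins the citric acid cycle to the chain. Its membrane anchor Sdhc had levels of 8.83, 8.45 and 8.84 on the KO arrays and 9.44, 9.48, 9.27 and 9.40 on the WT arrays. Every KO array lay below every WT array, with KO replicate 2 the lowest. Sdhc fell 1.61-fold (95% interval of the log2 change -0.93 to -0.45, limma adjusted p = 0.00808) and passed whichever array was left out. The other Sdhc probe set, some of whose probes resemble other sequences, had a change of -0.13 (adjusted p = 0.235). The other 3 subunits did not pass. The second anchor, Sdhd, had -0.25 (limma adjusted p = 0.121), with 0.10 at its dimmer probe set. Sdhb, the iron-sulfur subunit, had -0.14, and Sdha, the flavoprotein that oxidises succinate, had 0.04. The further Sdha probe sets were at -0.08, -0.03 and 0.06.

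Complex V held 4 of the 11 genes that fell, including the catalytic subunit. Atp5b encodes the beta subunit of the F1 head, where ATP is made. It stood at 10.25, 10.38 and 9.95 on the KO arrays and 10.64, 10.80, 10.75 and 10.94 on the WT arrays. Atp5b fell without overlap, and the log2 change was -0.59 (interval -0.84 to -0.33, limma adjusted p = 0.0138). Atp5e, the small epsilon subunit of the F1 stalk, had 9.68, 9.85 and 9.63 on the KO arrays against 10.05, 10.25, 10.14 and 10.32. All 3 KO levels lay below the lowest WT level, a fall of 1.39-fold (limma adjusted p = 0.0121). Of the remaining F1 genes, Atp5a1 had 0.003, Atp5c1 -0.13 and Atp5d 0.12 at their brightest probe sets, and none of them passed. A dimmer Atp5d probe set had 7.92, 7.28 and 7.82 on the KO arrays and 8.39, 8.54, 8.18 and 8.24 on the WT arrays. Its change was -0.66 (limma adjusted p = 0.0221 among probe sets). The dimmer Atp5c1 probe set had 0.13.

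In the membrane part, Atp5g1, Atp5g2 and Atp5g3 encode the same mature subunit c, the ring that proton flow turns, with different leader peptides. Atp5g2 had 9.20, 8.68 and 9.04 on the KO arrays and 9.68, 9.85, 9.50 and 9.73 on the WT arrays. The groups were apart, and the change was the largest among the 90 genes, 1.64-fold lower (interval -1.01 to -0.42, limma adjusted p = 0.0117). The 2 dimmer Atp5g2 probe sets, both under the level filter, had -0.08 and 0.01. Atp5g1 had -0.23 (limma adjusted p = 0.164) and Atp5g3 -0.06 (interval -0.20 to 0.08), and neither passed. Whether the 3 subunit c genes differed from each other was not tested. Atp5l, subunit g, stood at 11.20, 11.39 and 11.25 against 11.51, 11.62, 11.55 and 11.61, with no overlap. It fell 1.22-fold (limma adjusted p = 0.0249), and the call was lost after quantile normalization and without KO replicate 1 or 3 or WT replicate 2, 3 or 4. Atp5b, Atp5e and Atp5g2 passed whichever array was left out.

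The upstream promoter bases of Atp5g2 and Atp5b are shown because these 2 genes fell most in complex V. They are the 250 bases before the annotated start, from RefSeq on GRCm38.p6, 5′ to 3′ on the gene's strand. For Atp5g2 this is chr15:102671048-102671297 on the minus strand, and capitals mark an NRF1 motif (GCGCANGCG) and an overlapping match of it on the other strand, whose first base lies at -42 from the start. For Atp5b it is chr10:128083057-128083306 on the plus strand, and capitals mark a GATA motif.
Atp5g2: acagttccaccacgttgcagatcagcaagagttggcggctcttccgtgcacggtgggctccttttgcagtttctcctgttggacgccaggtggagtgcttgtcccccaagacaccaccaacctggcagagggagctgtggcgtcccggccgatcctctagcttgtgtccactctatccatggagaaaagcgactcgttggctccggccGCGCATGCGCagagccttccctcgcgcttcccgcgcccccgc
Atp5b: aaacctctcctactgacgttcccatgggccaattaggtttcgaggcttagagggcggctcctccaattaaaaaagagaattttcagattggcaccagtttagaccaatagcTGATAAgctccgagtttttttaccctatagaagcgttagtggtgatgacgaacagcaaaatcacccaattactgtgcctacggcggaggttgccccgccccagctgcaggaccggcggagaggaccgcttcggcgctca

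Promoter windows of 300 bases, 250 before and 50 after the start, were found for 74 of the 90 genes and searched on both strands. The NRF1 motif occurred in 20 of the 74 (27.0%), against 7.03% of all genes with a promoter in the RefSeq table and 13.8% of those tested. A GABPA motif, CCGGAAGT, occurred in 5 (6.76%, against 4.31% and 8.19%). GATA motifs (NGATAN with A or T before and A or G after the core, so that matches can share bases) occurred in 20 (27.0%, against 33.0% and 23.0%). Among 9 genes that fell and had a window, 4 held an NRF1 motif, 2 a GABPA motif and 4 a GATA motif, and none of the 3 that rose held any of them. Of 59 that did not pass, 15 held an NRF1 motif, 3 a GABPA motif and 16 a GATA motif. A motif match describes the letters only.

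**Figure D2:**
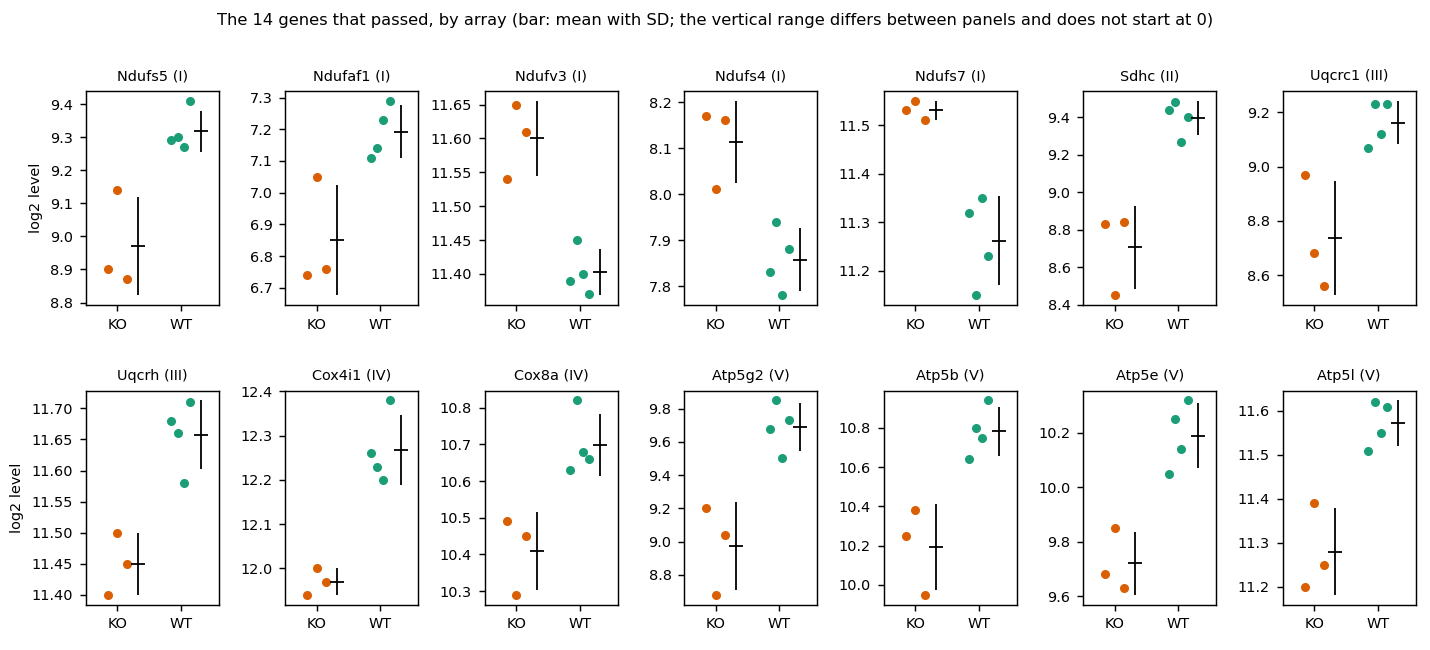
Log2 level on each array (vertical axis, with its own range in each panel that does not start at 0) of the 14 respiratory chain genes that passed, for 3 KO and 4 WT arrays. Points are arrays and bars the mean with SD, and in each panel no KO point lies within the range of the WT points.

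Complex III, which passes electrons from coenzyme Q to cytochrome c, had 2 genes lower. Uqcrc1, a core protein on the matrix side, had 8.97, 8.68 and 8.56 on the KO arrays and 9.07, 9.23, 9.12 and 9.23 on the WT arrays. KO replicate 1 came within 0.10 of the lowest WT array, and the fall was 1.34-fold (limma adjusted p = 0.0271). Uqcrh, the hinge protein that helps cytochrome c dock, had 11.40, 11.50 and 11.45 against 11.68, 11.66, 11.58 and 11.71. Its fall was 1.16-fold (limma adjusted p = 0.0488), and the second Uqcrh probe set, shared with other transcripts, fell by 0.49 on the log2 scale (adjusted p = 0.00931 among probe sets). Uqcrq had -0.23 and Uqcrb 0.09, and neither passed. Uqcrq had 0.18, 0.15 and 0.20 at its dimmer probe sets, and Uqcrb had -0.19. The call for Uqcrc1 was lost without any array but KO replicate 1, that for Uqcrh without any but KO replicate 2, and neither passed after quantile normalization.

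In complex IV, cytochrome c oxidase, the ubiquitous isoforms of subunits 4 and 8 fell. Cox4i1 had 11.94, 12.00 and 11.97 on the KO arrays and 12.26, 12.23, 12.20 and 12.38 on the WT arrays. The KO levels lay within 0.06 of each other and below all WT levels, a fall of 1.23-fold (limma adjusted p = 0.0198, or 0.0516 without WT replicate 1). Cox8a had 10.49, 10.29 and 10.45 against 10.63, 10.82, 10.68 and 10.66, a fall of 1.22-fold without overlap (limma adjusted p = 0.0368). The second Cox8a probe set fell as well, by 0.36 (adjusted p = 0.0299 among probe sets), while another under the level filter had 0.19. The Cox8a call at the gene's probe set was lost after quantile normalization, after cyclic loess and without any array but KO replicate 1.

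The alternative isoforms did not pass. Cox4i2, the lung-enriched form of subunit 4, had -0.16 (limma adjusted p = 0.202, interval -0.35 to 0.03). Cox6b2, known from testis, had -0.34 (limma adjusted p = 0.0853), while its ubiquitous partner Cox6b1 had 0.08 at the brightest probe set and -0.31 at the other. Cox6a1 had 0.08 and -0.12 at its 2 probe sets, and Cox7a2 had 0.01 and -0.17. Cox8c had 0.11. Cox7a2l, which takes part in joining complexes III and IV, had -0.07.

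The muscle isoforms Cox6a2, Cox7a1 and Cox8b varied most between mice of 1 genotype. Cox6a2 had 9.86, 10.49 and 10.09 on the KO arrays and 9.77, 10.28, 9.95 and 9.61 on the WT arrays, so the genotypes overlapped. Cox7a1 had 7.63, 8.30 and 8.20 against 8.03, 8.52, 8.05 and 7.46, and Cox8b had 7.29, 8.06 and 7.78 against 7.72, 8.28, 7.79 and 7.22. In each of the 3 genes KO replicate 2 was the highest KO array, WT replicate 2 the highest WT array, and KO replicate 1 and WT replicate 4 the lowest of their genotypes. Their log2 changes were 0.24, 0.03 and -0.04, with intervals of -0.17 to 0.66, -0.53 to 0.58 and -0.61 to 0.53.

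Cardiac muscle genes, which the muscle in the walls of pulmonary veins also uses, had the same high and low arrays. The log2 summed level of a list of 10 was 13.78, 14.30 and 14.07 on the KO arrays and 13.87, 14.48, 14.16 and 13.54 on the WT arrays. All 10 were tested and none passed in limma. Myh6, the atrial myosin heavy chain, ranged from 11.86 on WT replicate 4 to 12.66 on KO replicate 2. Ucp1 and Cidea, which define brown fat, lay under the level filter, as did 5 of 7 skeletal muscle genes. The 3 tested fat genes, Adipoq, Fabp4 and Retn, did not pass in limma. In each, KO replicate 2 was the highest KO array and WT replicate 2 the highest WT array. Adipoq had 5.36, 6.61 and 6.58 on the KO arrays and 6.58, 7.78, 6.41 and 6.05 on the WT arrays. Fabp4 had 9.38, 10.25 and 9.88 against 9.71, 10.64, 9.46 and 9.42. In bulk lung RNA, fewer cells of a type and less RNA per cell cannot be told apart. Pecam1, an endothelial marker, fell 2.33-fold (limma adjusted p = 0.00679), and Foxf1, a mesenchymal factor of the lung, fell 1.38-fold (limma adjusted p = 0.0265). They were the 2 of 7 lung markers that passed. Of the other 5, Sftpb had -0.74 (limma adjusted p = 0.0687), Sftpd -0.13, Sftpc -0.12, Ager -0.02 and Scgb1a1 0.06. The part of cell makeup in the respiratory chain values was not tested.

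**Figure D3:**
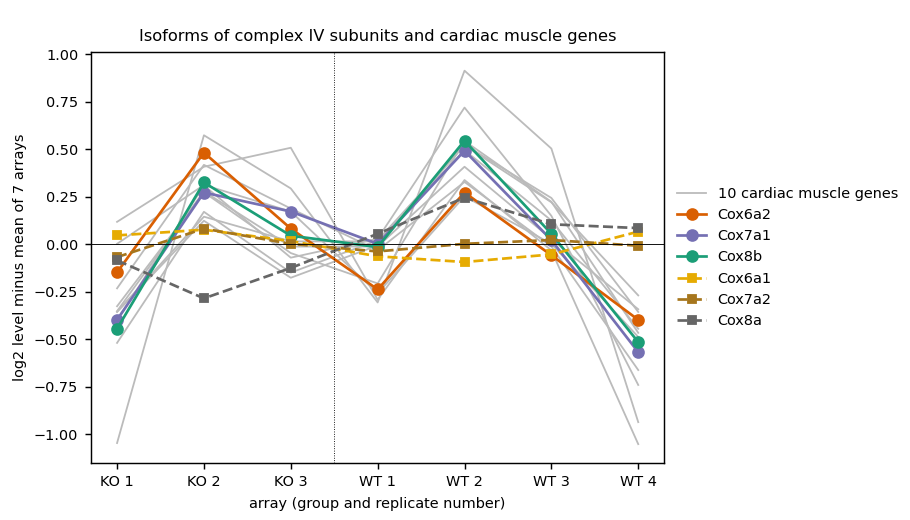
Log2 level minus the mean of the 7 arrays (vertical axis) on each array (horizontal axis) for isoforms of complex IV subunits and for cardiac muscle genes. Cox6a2, Cox7a1 and Cox8b (solid lines) are highest on KO replicate 2 among KO arrays and on WT replicate 2 among WT arrays, as most of the 10 cardiac genes (grey) are, and Cox6a1 and Cox7a2 (dashed) move little between arrays.

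Complex I held genes that fell and genes that rose. Ndufs5, an accessory subunit facing the intermembrane space, had 8.90, 9.14 and 8.87 on the KO arrays and 9.29, 9.30, 9.27 and 9.41 on the WT arrays. The genotypes were apart and the fall was 1.27-fold (limma adjusted p = 0.0255). Ndufaf1, which helps to assemble the membrane arm, had 6.74, 7.05 and 6.76 against 7.11, 7.14, 7.23 and 7.29. It fell 1.27-fold too (limma adjusted p = 0.0382), and KO replicate 2 lay just below the WT range. Ndufa3 at -0.36 (limma adjusted p = 0.0693) and Ndufa8 at -0.28 (limma adjusted p = 0.112) did not pass. A second Ndufa3 probe set also had -0.36, and one under the filter had 0.13.

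The 3 genes that rose encode parts of the arm that protrudes into the matrix. Ndufs7, a core subunit with an iron-sulfur cluster near the coenzyme Q site, had 11.53, 11.55 and 11.51 on the KO arrays and 11.32, 11.15, 11.35 and 11.23 on the WT arrays. It was 1.20-fold higher without overlap (limma adjusted p = 0.0308). Ndufs4, an accessory subunit whose loss is a known cause of Leigh syndrome, had 8.17, 8.01 and 8.16 against 7.83, 7.94, 7.78 and 7.88, which was 1.19-fold higher (limma adjusted p = 0.0395). Ndufv3 had 11.54, 11.65 and 11.61 against 11.39, 11.45, 11.40 and 11.37, and was 1.15-fold higher (limma adjusted p = 0.0491). These rises were small, and none of the 3 kept its call in more than 2 of the 7 fits that each left out 1 array. Ndufs5 lost its call in 5 of those fits and Ndufaf1 in 6. Ndufs4 and Ndufs7 also had probe sets that moved the other way.

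Other probe sets of the same genes gave another picture of complex I. The array holds plain probe sets, designed to match 1 transcript, and probe sets with a suffix, which match several transcripts of a gene, transcripts of other genes, or sequences like them. At its plain probe set Ndufs4 had 7.77, 7.84 and 7.61 on the KO arrays and 8.12, 7.96, 8.13 and 8.21 on the WT arrays. That was 1.29-fold lower (adjusted p = 0.0205 in a limma fit over 22420 probe sets), where the suffixed probe set used above was higher. The difference between the 2 changes was -0.62 (interval -0.88 to -0.37, adjusted p = 0.00382), from a limma fit on plain minus suffixed levels over 2577 genes that have both kinds. Its 2 remaining probe sets had -0.08 and 0.29, neither of which passed.

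Further complex I genes showed the same contrast. Ndufv1, the core subunit that binds NADH and flavin, had 8.87, 8.58 and 8.60 on the KO arrays and 9.04, 9.16, 9.05 and 9.26 on the WT arrays at its plain probe set. This was 1.36-fold lower without overlap (adjusted p = 0.0150 among probe sets), where its brightest suffixed probe set had 0.12 and the other 0.11. Ndufc2 had -0.46 against 0.11, with -0.08 and 0.14 at its other probe sets, Ndufv2 had -0.34 against 0.21, and Ndufs7 had -0.24 against 0.27. Ndufs8, Ndufb9 and Ndufb11 had -0.37, -0.38 and -0.37 against 0.11, 0.08 and 0.08. In each of these genes the difference between the 2 changes passed, with adjusted p from 0.00286 to 0.00932.

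The contrast was not limited to complex I. Atp5a1, the alpha subunit of F1, had 10.56, 10.60 and 10.59 on the KO arrays and 10.94, 11.13, 10.99 and 11.20 on the WT arrays at its plain probe set, which was 1.40-fold lower (adjusted p = 0.00652 among probe sets). Its brighter suffixed probe set had 12.32, 12.35 and 12.21 against 12.25, 12.34, 12.27 and 12.30, within which the genotypes overlapped. A dimmer plain probe set of Atp5a1 was higher by 0.48 (adjusted p = 0.0111). Atp5h, Atp5pb and Cox6b1 had -0.39, -0.34 and -0.31 at plain probe sets against 0.06, 0.06 and 0.08 at suffixed ones.

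Over all 38 members with both kinds, the plain probe set had the lower change in 29 (76.3%, against 62.3% of all 2577 genes). The difference passed in that direction in 18 (29.2% of all 2577 genes passed in that direction). It passed the opposite way in 2, Ndufab1 and Uqcrh (12.1% of all genes). The median difference was -0.24 for the members and -0.12 for all genes. The plain change was negative and the suffixed one positive in 24 of 38, against 843 of 2577. The suffixed probe set was the brighter in 33 of 38, so kind and brightness went together here. Among genes with the brighter suffixed probe set the median difference was -0.28 for 33 members and -0.18 for 1662 genes. With either actin control difference as a covariate the difference passed in 0 of 38 by limma (14 and 4 at unadjusted p under 0.05), and with the Gapdh one in 1 (20 at unadjusted p under 0.05). Over all 2577 genes, 554 (actin 3′ minus 5′), 406 (actin 3′ minus middle) and 746 (Gapdh) had an unadjusted p under 0.05 in limma. Of these 2577, 0, 0 and 18 passed with the plain change lower, and 1, 0 and 14 the opposite way. The median difference of the members in these fits was -0.23 (actin 3′ minus 5′), -0.11 (actin 3′ minus middle) and -0.33 (Gapdh). The part of the control differences in this contrast was not otherwise tested.

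**Figure D4:**
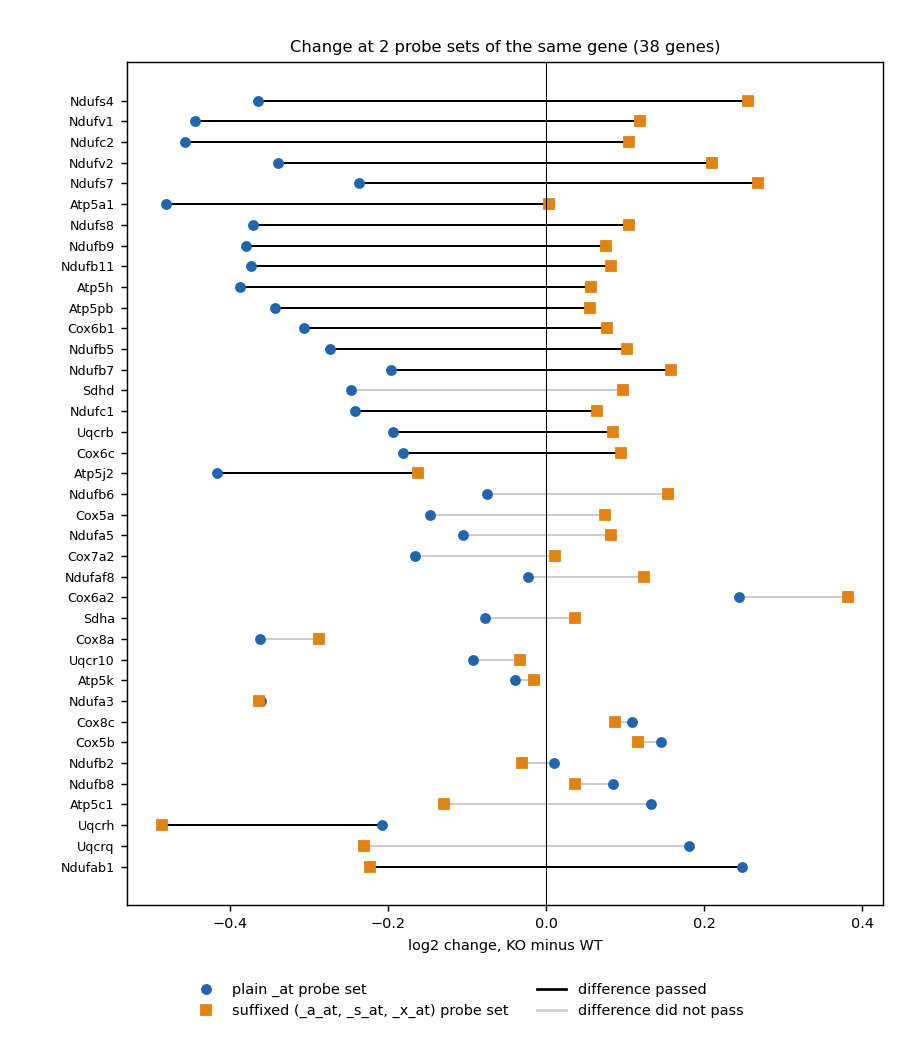
Log2 change (KO minus WT, horizontal axis) at the brightest plain and the brightest suffixed probe set of each of 38 genes, joined by a line. In 29 genes the plain point lies to the left of the suffixed one, and in 28 the points lie on opposite sides of 0, in 24 of them with the plain point below 0. Over all 2577 genes with both kinds, not drawn, the plain change was the lower in 1605 and the signs were opposite in 1223.

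Of all 22420 tested probe sets 13.3% were lower and 5.83% higher. Among the members 21 of 77 plain ones were lower (27.3%, against 13.1% of all plain probe sets) and 1 was higher (1.30%, against 5.29%). Of 86 suffixed ones 9 were lower (10.5%, against 13.9%) and 3 higher (3.49%, against 7.35%). Between levels of 9 and 10 all 17 plain and all 10 suffixed probe sets had negative changes, with medians of -0.26 and -0.23, where all probe sets of these kinds and levels had -0.11 and -0.03. Between 11 and 12 all 10 plain ones were negative but only 9 of 27 suffixed ones, and at 12 or above 1 of 18 suffixed ones was. Over all probe sets, 375 of 472 plain and 229 of 487 suffixed ones were negative between 11 and 12, and 153 of 349 suffixed ones at 12 or above. Taking each gene's plain probe set where it had one gave 19 members lower and 0 higher of 87 in limma (42 at unadjusted p under 0.05), with a complex I median of -0.18 and a complex V median of -0.29. With that choice 1528 of 13285 genes were lower and 617 higher in limma, and 4675 had an unadjusted p under 0.05. Of the member calls, 10 were shared with those above. The complex I median was thus 0.04 or -0.18 according to which probe set stood for each gene.

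**Figure D5:**
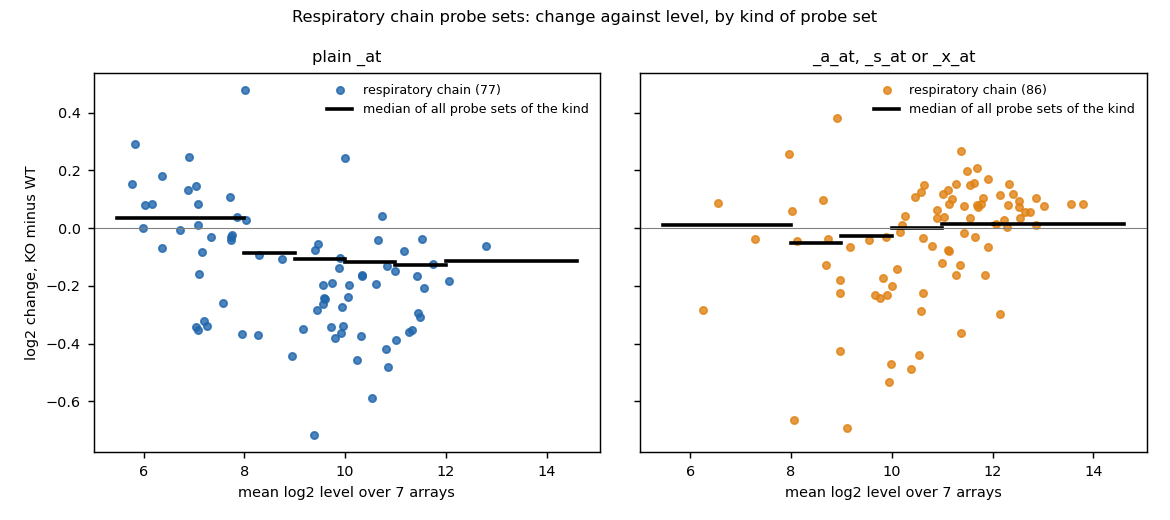
Log2 change (KO minus WT, vertical axis) against mean log2 level over the 7 arrays (horizontal axis) for the 163 respiratory chain probe sets that passed the level filter, plain ones and suffixed ones in separate panels. Plain probe sets lie mostly below 0 from a level of 9 upward, and suffixed ones lie mostly near or above 0 from a level of 11, with Ndufa3 at -0.36 and Cox4i1 at -0.30 among those below.

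Genes that work beside the chain moved in both directions, and the counts below stand against 10.0% lower and 5.56% higher among all genes tested. Of 31 tested assembly factors of complexes II to V, Uqcc2, needed for cytochrome b in complex III, fell. It had 8.77, 8.46 and 8.59 on the KO arrays and 9.15, 9.07, 9.19 and 9.38 on the WT arrays, 1.51-fold lower without overlap (limma adjusted p = 0.00927). Cox15, which makes heme A for complex IV, rose 1.37-fold (limma adjusted p = 0.0261). None of 6 further complex I assembly factors passed, Timmdc1 having the smallest p with a change of 0.16. Of 11 tested coenzyme Q genes, Coq8a rose from 7.15, 7.08, 7.20 and 7.26 on the WT arrays to 7.55, 7.58 and 7.68 on the KO arrays, 1.35-fold (limma adjusted p = 0.00825). Of 6 partner proteins, among them cytochrome c, electron transfer flavoprotein and the ATP synthase inhibitor Atpif1, only Etfb, part of the carrier from fatty acid oxidation, passed, at -0.28 (limma adjusted p = 0.0435), and its call was lost without any array but KO replicate 2. Cox15 lost its call without KO replicate 2 or 3 or WT replicate 1.

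Of 17 citric acid cycle and pyruvate dehydrogenase genes, 2 fell (11.8%) and 1 rose (5.88%), shares close to those of all genes. Ogdh, the oxoglutarate dehydrogenase, had 9.34, 9.13 and 9.25 on the KO arrays and 9.78, 9.86, 9.69 and 9.82 on the WT arrays. It fell 1.46-fold without overlap (limma adjusted p = 0.00648). Dld, the lipoamide dehydrogenase shared by both enzyme complexes, fell by 0.59 on the log2 scale (limma adjusted p = 0.0164), and Cs, citrate synthase, rose 1.21-fold (limma adjusted p = 0.0253). Among 13 glycolysis genes Pfkl fell by 0.58 and Ldha by 0.25 on the log2 scale (limma adjusted p = 0.0282 and 0.0488), 2 of 13 or 15.4%, and none rose. The Ldha call was lost whichever array was left out, that of Pfkl without WT replicate 1, 2 or 4, that of Dld without KO replicate 3, and that of Cs without WT replicate 1 or 4.

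Of 13 regulators of mitochondrial biogenesis, 3 fell (23.1%) and 1 rose (7.69%). Pprc1, a coactivator related to Ppargc1a, fell 1.64-fold (limma adjusted p = 0.0200), Tfb2m, a mitochondrial transcription factor, fell by 0.44, Polg, the mitochondrial DNA polymerase, fell by 0.31 (limma adjusted p = 0.0183 and 0.0326), and Esrra rose by 0.36 (limma adjusted p = 0.0489). Ppargc1a at 0.13, Nrf1 at 0.13, Gabpa at -0.06 and Tfam at -0.04 did not pass. The Esrra call was lost whichever array was left out, that of Polg in 5 of the 7 such fits (all but those without KO replicate 3 or WT replicate 2), that of Tfb2m without KO replicate 3 or WT replicate 1, and that of Pprc1 without KO replicate 1 or 2. Of 17 import and carrier genes, Timm44 and Timm17b of the inner membrane import machinery and Slc25a4, the ADP/ATP carrier, rose by 0.36, 0.23 and 0.26 (limma adjusted p = 0.0111, 0.0401 and 0.0213), 17.6% of the list, and none fell. Timm44 passed whichever array was left out, Timm17b lost its call without any array but KO replicate 2, and Slc25a4 without KO replicate 3 or WT replicate 1 or 4. At plain probe sets Timm44, Timm17b and Cs had -0.38, -0.18 and -0.09, and Pfkl 0.11. ND5, a mitochondrially encoded complex I gene and the only mitochondrially encoded gene matched here, had 13.18, 13.35 and 13.50 on the KO arrays and 12.83, 13.11, 13.08 and 12.89 on the WT arrays. It was 1.29-fold higher (limma adjusted p = 0.0430), and the call was lost without KO replicate 2 or 3 or WT replicate 1, 3 or 4.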

How the data were processed

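Deposited values were log2 levels of 45101 probe sets on 7 arrays. Per the submitters' processing notes the tools were Affymetrix Expression Console, RMA and MAS5, with no role or version stated, and the log base was inferred from the values. The platform annotation gave 1 gene for 34945 probe sets, several for 932 and none for 9160. For 34741 of the 34945 the symbol was taken from RefSeq (GRCm38.p6), whether or not it differed from the platform's. Each gene was represented by its brightest probe set, and genes at or above the 40th percentile of probe set means (5.47) were tested with lmFit and eBayes in limma 3.58.1 (R 4.3.3), genotype alone, with Benjamini-Hochberg adjustment over all of them. The fit was tested on simulated data. Figures used matplotlib 3.10.9 (Python 3.11.15). For arrays, their number limits the precision.

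The members and lists were chosen with earlier results of these data known. Named genes are those that passed, the 3 largest changes and the brightest of each complex, all of complex II, the isoform sets, and up to 4 passing genes of each list. Chosen after their values were seen were the split into plain and suffixed probe sets with its tests, level classes and examples, 2 added alternatives, assembly factors counted apart, the motifs and promoters, and values of further named genes.

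Replicate numbers did not pair the arrays: deviations of equal numbers correlated at 0.003, -0.04 and 0.04. Alternatives covered normalization, level filter, probe set choice, variance model, array weights, control covariates, replicate block, a subset of the 5 lowest-numbered mice, and each array left out in turn.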

Additional observations from a re-analysis of the deposited data

How the results depend on the processing

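Counts of 2069 genes and of 11 members lower and 3 higher came from all 7 arrays with genotype as the only term. With the actin 3′ minus 5′ covariate 0 genes passed in limma (2204 at unadjusted p under 0.05), with the actin 3′ minus middle covariate 0 (1742), with the Gapdh covariate 5 (2726) and with the 5 lowest mouse numbers 0 (2791), and in each 0 members were lower and 0 higher (12, 4, 24 and 16 at unadjusted p under 0.05). The replicate block gave 371 genes, 1 member lower (Sdhc) and 0 higher, and Cox7a1 at -0.16. In that fit the plain minus suffixed difference passed with the plain change lower in 13 of 38 members (506 of 2577 genes). It passed the opposite way in 1 (230 of 2577 genes). In these fits the cause was not tested.

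Leaving out 1 array gave 891 to 1951 genes, 5 to 17 members lower, 0 to 1 higher, and medians of -0.26 to -0.11 (complex II), -0.24 to -0.14 (III) and -0.21 to -0.082 (V). Sdha ranged from -0.012 to 0.078, Cox7a2 from -0.028 to 0.048, Cox7a1 from -0.16 to 0.24 and Cox8b from -0.22 to 0.17. Control differences ranged from 0.65 to 0.98 (actin 3′ minus 5′), 0.45 to 0.70 (actin 3′ minus middle) and 0.40 to 0.63 (Gapdh).

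Quantile normalization gave 7 members lower and 8 higher, medians of 0.087, -0.10, -0.082 and -0.055 for complexes I, II, III and V, Cox7a2l at 0.00048 and Cox8b at 0.0085. Cyclic loess gave 7 higher, medians of 0.091, -0.13, -0.11 and -0.061, Atp5g3 at 0.0051 and Cox7a2l at 0.0018. Median centring turned Cox7a2 to -0.018 and Cox7a1 to -0.00083, and array weights turned them to -0.0062 and -0.057. Averaging all probe sets gave 1 higher, medians of -0.065, -0.11 and -0.12 (I, II, III), Ndufc2 at -0.073, Sdha -0.0029, Uqcrq 0.076, Uqcrb -0.054, Cox6a1 -0.019, Cox7a2 -0.078, Cox6b1 -0.11 and Slc25a4 -0.046. Plain probe sets gave 19 lower and 0 higher, medians of -0.18 (I) and -0.29 (V), Ndufs4 -0.37, Ndufs7 -0.24, Ndufc2 -0.46, Sdha -0.078, Uqcrq 0.18, Uqcrb -0.19, Cox7a2 -0.17, Cox6b1 -0.31, Cs -0.089, Timm44 -0.38, Timm17b -0.18 and Pfkl 0.11, by construction from other probe sets.

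The actin 3′ minus 5′ covariate gave a complex I median of -0.076, Ndufa3 0.077, Sdha -0.12, Atp5g3 0.025, Cox4i2 0.030, Cox7a2 -0.084, Cox7a1 -0.29, Cox6a2 -0.097, Pfkl 0.011 and 0 pairs. The Gapdh covariate gave medians of -0.058, -0.28, -0.24, -0.085 and -0.23 (I to V), Ndufa3 0.014, Sdha -0.052, Cox7a2 -0.10, Cox7a1 -0.088, Cox6a2 -0.085 and 1 pair. The actin 3′ minus middle covariate gave medians of 0.049 (II) and -0.038 (III), Ndufa8 0.12, Ndufc2 -0.044, Sdhb 0.16, Uqcrb -0.014, Cox6b2 0.030, Cox7a2l 0.094, Cox7a1 -0.62 and 0 pairs. The 5 lowest mouse numbers gave Cox7a1 at -0.23 and 11 pairs, all with the plain change lower (303 of 2577 genes in that direction). Level filters and the trend and robust variance model moved no group count by over 1.5 times. The cause of these shifts was not tested.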
